A study of Homo sapiens with 3 samples.

Results

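The genes described here are the nuclear genes named for the subunits of the 5 complexes of oxidative phosphorylation. The rule reads gene symbols alone, among the protein-coding genes of GENCODE release 44 (GRCh38, chromosomes 1 to 22 and X). Symbols beginning with NDUFA, NDUFB, NDUFC, NDUFS or NDUFV and a digit gave 39 genes of complex I (NADH dehydrogenase), and SDHA to SDHD gave the 4 genes of complex II (succinate dehydrogenase). Symbols beginning with UQCR gave 9 genes of complex III (the cytochrome bc1 complex), COX with a digit from 4 to 8 gave 17 genes of complex IV (cytochrome c oxidase), and ATP5 gave 20 genes of complex V (ATP synthase). In all, 89 of 19970 genes were members.

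Binding was mapped by chromatin immunoprecipitation and sequencing (ChIP-seq) in neural stem cells of the WT genotype made from the human embryonic stem cell line H9 (an established line), with no treatment named. CHD8 is an ATP-dependent chromatin remodeler, and TRRAP is the scaffold subunit that histone acetyltransferase complexes use to reach transcription factors. Chromatin was fixed with 2 mM disuccinimidyl glutarate followed by 1% formaldehyde and sheared in 14 cycles of sonication before it met a Bethyl antibody to CHD8 or an Invitrogen antibody to TRRAP. Each antibody had 1 library, all from the same line, and the control library with Diagenode IgG is not analysed here. Peak lists hold no expression values, so the labelled cell type was not checked against its markers.

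Electrons from NADH enter the respiratory chain at complex I and those from succinate at complex II. They pass through ubiquinone, complex III, cytochrome c and complex IV to oxygen, while complexes I, III and IV pump protons that drive ATP synthesis by complex V. A few central subunits of complexes I, III, IV and V are encoded by mitochondrial DNA, and the others, with all of complex II, come from nuclear genes scattered over the chromosomes. The factors NRF1, GABPA (an ETS protein, also called NRF2) and YY1 are known for binding promoters of such genes.

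A gene was called occupied when a peak of the deposited list lay, by at least 1 bp, within 1 kb of the start of its canonical transcript. Of several peaks, the most significant one was taken. Its fold is the authors' own ratio of signal over background and was compared only within its list. With 1 library per antibody there is no replicate error and no p-value. The bracketed ranges are Wilson 95% intervals, which cover counting error over genes and not the spread between cultures. A gene without a peak is one where none was called, which does not show that the protein was absent, since the read totals behind the lists are unknown.

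CHD8 lay at the promoters of nearly all members, and TRRAP at a minority of them. A CHD8 peak was called at 80 of 89 genes (89.9%, 81.9 to 94.6), beside 56.1% of all protein-coding genes. A TRRAP peak was called at 38 of 89 (42.7%, 32.9 to 53.1), beside 35.1% of all genes. All 38 genes with TRRAP also had CHD8, as did 97.2% of all genes with TRRAP. In all 38 the peaks overlapped, as they did at 6692 of the 6802 genes with both. The share with both was therefore 42.7% as well, beside 34.1% of all genes. The other 42 occupied genes had CHD8 alone (47.2%, beside 22.1% of all genes), and 9 genes had neither peak (10.1%, beside 42.9%). None had TRRAP alone, which was also rare among all genes (0.99%).

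CpG content went along with these shares. The ratio of observed to expected CpG, over 500 bp to either side of the start, had a median of 0.736 in members and 0.725 in all genes, but 83 of the 89 members (93.3%) reached 0.6, against 66.3% of all genes. Among all CpG-rich genes by that limit, 77.8% had CHD8 and 50.2% had TRRAP, whereas among the 83 CpG-rich members 96.4% (89.9 to 98.8) had CHD8 and 45.8% (35.5 to 56.5) had TRRAP. Across the 5923 genes whose CpG ratio lay between the lower and upper quartile of the members, CHD8 occupied 75.03% and TRRAP 42.9%. The members' CHD8 share thus stood above both CpG-rich backgrounds, while their TRRAP share differed from neither by more than its interval.

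Among genes with CHD8, TRRAP was called at 38 of 80 members (47.5%, 36.9 to 58.3), below the 60.7% of all genes with CHD8. All CpG-rich genes with CHD8 gave 62.9%, above the members' interval, and those within the members' quartile range of CpG ratio gave 55.7%, inside it. The mitochondrial ribosomal protein genes, which are also nuclear, had CHD8 at 77 of 78. TRRAP was called at 41 of those 77, the count to set beside 38 of 80 members. Over all 78 genes the TRRAP share was 52.6%.

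**Figure D1:**
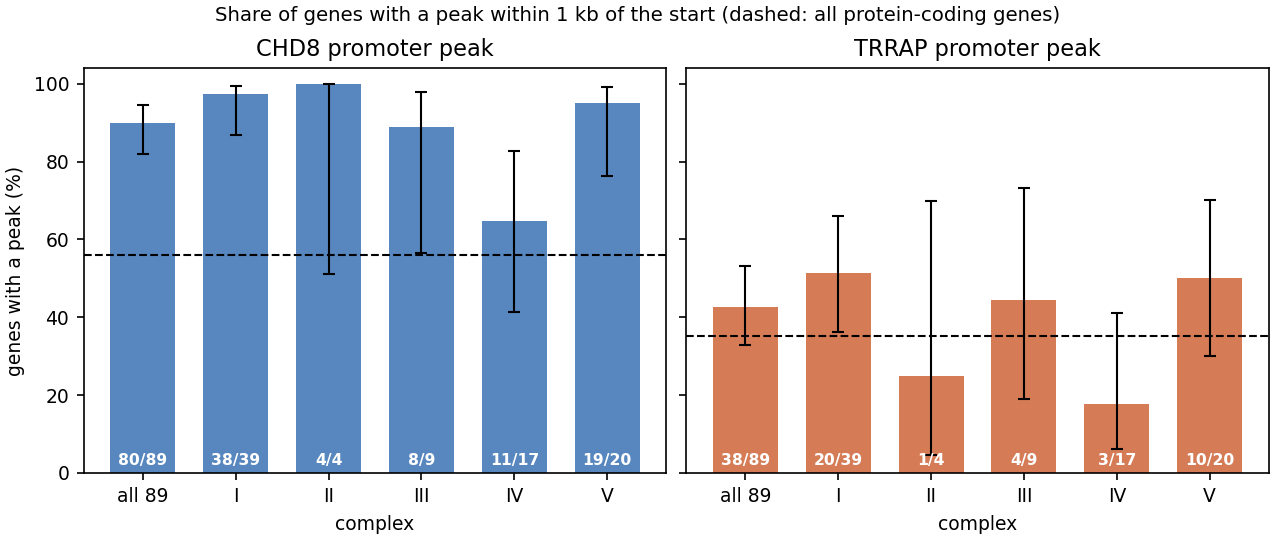
Percentage of genes with a CHD8 (left) or TRRAP (right) promoter peak, for all 89 genes and for each complex; bars are shares, whiskers Wilson 95% intervals, white numbers counts, and the dashed line all protein-coding genes (56.1% and 35.1%). Complex IV is lowest on both sides, at 11 of 17 and 3 of 17.

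The promoter sequences that the description turns on are printed here, read from the GRCh38 genome on the strand of the gene, 5′ to 3′. Positions count the start as 1 and the base before it as -1, and capitals mark exact matches to a consensus word of ETS proteins, NRF1, YY1 or the cAMP response element (CRE). SDHB (chr1:17054013-17054172, minus strand, from -140 to 20) is shown because it had the strongest TRRAP peak, and NDUFA10 (chr2:240025323-240025422, minus strand) and NDUFB2 (chr7:140696618-140696727, plus strand) because they share its CRE word.
SDHB: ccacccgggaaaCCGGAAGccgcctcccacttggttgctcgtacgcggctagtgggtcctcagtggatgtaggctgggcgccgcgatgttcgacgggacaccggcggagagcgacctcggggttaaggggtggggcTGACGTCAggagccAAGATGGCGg
NDUFA10: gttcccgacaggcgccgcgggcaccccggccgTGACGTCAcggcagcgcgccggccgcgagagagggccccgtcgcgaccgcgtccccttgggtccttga
NDUFB2: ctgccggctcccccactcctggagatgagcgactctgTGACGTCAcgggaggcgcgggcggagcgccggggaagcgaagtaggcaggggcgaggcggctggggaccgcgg
NDUFS7 (chr19:1383817-1383934, plus strand), COX8A (chr11:63974560-63974639, plus strand) and ATP5F1A (chr18:46098277-46098366, minus strand) had strong CHD8 peaks and no TRRAP peak.
NDUFS7: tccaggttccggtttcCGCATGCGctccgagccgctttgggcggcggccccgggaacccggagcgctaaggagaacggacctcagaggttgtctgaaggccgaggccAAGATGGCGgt
COX8A: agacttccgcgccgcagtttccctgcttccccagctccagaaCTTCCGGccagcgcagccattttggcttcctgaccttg
ATP5F1A: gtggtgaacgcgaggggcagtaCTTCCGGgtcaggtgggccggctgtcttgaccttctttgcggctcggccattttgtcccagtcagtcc
ATP5PF (chr21:25734895-25734994, minus strand) shares its promoter with GABPA. COX6A1 (chr12:120438053-120438132, plus strand) and COX6A2 (chr16:31428341-31428420, minus strand) are the widely expressed and the muscle form of one subunit, the former with CHD8 and the latter with neither peak.
ATP5PF: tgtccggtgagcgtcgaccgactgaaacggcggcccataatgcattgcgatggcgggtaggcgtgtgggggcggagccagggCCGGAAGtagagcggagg
COX6A1: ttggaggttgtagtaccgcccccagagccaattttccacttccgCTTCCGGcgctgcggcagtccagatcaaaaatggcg
COX6A2: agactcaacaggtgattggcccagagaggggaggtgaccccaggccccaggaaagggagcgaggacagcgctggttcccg

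Complex I, the NADH-oxidising entry of the chain, had CHD8 at 38 of 39 genes (97.4%, 86.8 to 99.6) and TRRAP at 20 of 39 (51.3%, 36.2 to 66.1). For each complex the background is 56.1% of all genes with CHD8 and 35.1% with TRRAP. Its core subunits carry the flavin and the iron-sulfur clusters, and all of those encoded in the nucleus had CHD8. Core genes with TRRAP as well included NDUFS1, NDUFS3, NDUFS8 and NDUFV2. NDUFS7, which holds the cluster next to ubiquinone, and NDUFV1, the flavin subunit that takes electrons from NADH, had CHD8 alone. NDUFS7 had one of the strongest CHD8 peaks of the complex (fold 35.8, chr19:1383445-1384118) and NDUFV1 one of the weaker (fold 9.75), so core genes without TRRAP could have a strong or a weak CHD8 peak.

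The accessory subunits of complex I surround the core and stabilise it. All 29 had CHD8 and 13 had TRRAP (44.8%, 28.4 to 62.5). Accessory genes with both were NDUFA6, NDUFA7, NDUFA9, NDUFA10, NDUFA11, NDUFA12, NDUFB1, NDUFB2, NDUFB4, NDUFB6, NDUFB10, NDUFC1 and NDUFC2. Those with CHD8 alone were NDUFA1, NDUFA2, NDUFA3, NDUFA5, NDUFA8, NDUFA13, NDUFB3, NDUFB5, NDUFB7, NDUFB8, NDUFB9, NDUFB11, NDUFS4, NDUFS5, NDUFS6 and NDUFV3. NDUFA4, a complex I gene by symbol whose protein sits in complex IV, had both, and the readthrough gene NDUFC2-KCTD14 shares the promoter and both peaks of NDUFC2.

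CHD8 folds in complex I ran from 6.66 at NDUFA8 to 36.7 at NDUFC1, with a median of 17.5. The NDUFC1 value belongs to a broad peak (chr4:139301055-139302491) whose summit lay 953 bp into the gene, towards the start of NAA15, which begins inside NDUFC1 on the opposite strand and encodes a subunit of a protein acetyltransferase. The NDUFA8 peak (chr9:122159684-122159939) was centred 14 bp upstream of the start. TRRAP folds ran from 6.73 at NDUFB1 and NDUFV2 to 15.8 at NDUFA12 (chr12:95003638-95003847, summit 44 bp upstream). NDUFC2 and NDUFS3 followed at 14.9 and NDUFA10 at 14.4, so the highest values came from 4 promoters. Of the 20 genes, 8 lay above the median of all genes with TRRAP. The peak shared by NDUFC2 and NDUFC2-KCTD14 is counted for both genes in the 8 and the 20.

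Complex II links the citric acid cycle to the chain, and its 4 genes all had CHD8. SDHB, the iron-sulfur subunit, alone had TRRAP. Its TRRAP peak (chr1:17053983-17054243, −log10 q of 85.7) had a fold of 33.5, the highest of any member, at the 99.0th percentile of genes with TRRAP and rank 196 of 14735 peaks. The summit lay 74 bp upstream of the start and 55 bp from the CHD8 summit, inside the SDHB sequence printed above. The SDHB CHD8 fold was 22.6, below that of SDHC at 30.5 (a membrane anchor), with SDHD (the other anchor) at 11.5 and SDHA (the flavoprotein) lowest at 9.31. SDHC therefore had more CHD8 enrichment than SDHB and its nearest TRRAP peak was 75493 bp away. The SDHA promoter occurs in part in more than 1 place in the genome, with 21.4% of the 32-base words around its CHD8 summit found more than once, so reads there can be misplaced.

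Complex III passes electrons from ubiquinol to cytochrome c, and 8 of its 9 genes had CHD8, 4 of them with TRRAP. Both peaks were at UQCRC1 (a core protein), UQCRB and UQCRQ (small subunits) and UQCRH (the hinge protein beside cytochrome c1). UQCRC2 (the other core protein), UQCRFS1 (the Rieske iron-sulfur protein), UQCR10 and UQCR11 had CHD8 alone. CHD8 folds were even: UQCRC2 was highest at 25.2 (chr16:21952526-21953775), and UQCRC1, UQCRFS1, UQCR11 and UQCRQ tied for lowest at 13.3. All 8 exceeded the median of all genes with CHD8. TRRAP folds were 8.65 at UQCRC1 and UQCRH, 7.69 at UQCRQ and 5.78 at UQCRB, none above the median of all genes with TRRAP.

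Complex IV, which reduces oxygen, had the lowest shares of the complexes, with CHD8 at 11 of 17 genes (64.7%, 41.3 to 82.7) and TRRAP at 3 of 17 (17.6%, 6.19 to 41.0). Both intervals include the shares of all genes, 56.1% and 35.1%. All 6 genes without CHD8 are isoform genes that are expressed mainly in particular tissues. Of the 11 with CHD8, 3 (27.3%, 9.75 to 56.6) had TRRAP, beside 60.7% of all genes with CHD8. These were COX4I1 and COX5A, which join the mitochondrially encoded core early in assembly, and COX7A2L, a factor of respiratory supercomplexes. COX5B, COX6A1, COX6B1, COX6C, COX7A2, COX7B, COX7C and COX8A had CHD8 alone. COX8A had the highest CHD8 fold, 38.04 (chr11:63974347-63975172, 97.9th percentile), and COX6B1 the lowest, 9.31. The TRRAP folds were 10.6 at COX5A and 7.69 at COX4I1 and COX7A2L. The interval of the TRRAP share of complex IV overlapped that of each other complex, whereas its CHD8 interval lay below that of complex I and overlapped the rest.

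Complex V makes ATP, and 19 of its 20 genes had CHD8 and 10 had TRRAP (50.0%, 29.9 to 70.1). Within it the TRRAP counts differed by role. All 4 genes of the peripheral stalk, which holds the catalytic head still, had both: ATP5PB, ATP5PD, ATP5PF and ATP5PO. Of the 5 genes of the catalytic F1 head, all had CHD8, but TRRAP was called at ATP5F1E alone and not at ATP5F1A, ATP5F1B, ATP5F1C or ATP5F1D. These counts rest on 4 and 5 genes, with intervals of 51.01 to 100% and 3.62 to 62.5% that overlap. Both intervals include the 60.7% of all genes with CHD8 that had TRRAP. Of the 4 stalk genes, 3 share their promoter with a divergent neighbour.

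Of the 3 genes that encode the same c subunit of the rotating ring, ATP5MC2 had both, and ATP5MC1 and ATP5MC3 had CHD8 alone. Among the small membrane subunits, ATP5ME, ATP5MF and ATP5MK had both, and ATP5MG and ATP5MJ had CHD8 alone, as did ATP5IF1, the inhibitor of ATP hydrolysis. ATP5MF-PTCD1, a readthrough gene, shares the peaks of ATP5MF. ATP5PB, encoding stalk subunit b, had the highest CHD8 fold of all members, 50.9 (chr1:111448846-111450032, rank 118 of 23393 peaks), yet tied with ATP5MC2 for the lowest TRRAP fold of the complex, 5.78. ATP5F1D, encoding the delta subunit, had the lowest CHD8 fold, 7.54, and its nearest TRRAP peak lay 1311 bp away. The highest TRRAP fold was 11.5 at ATP5ME.

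**Figure D2:**
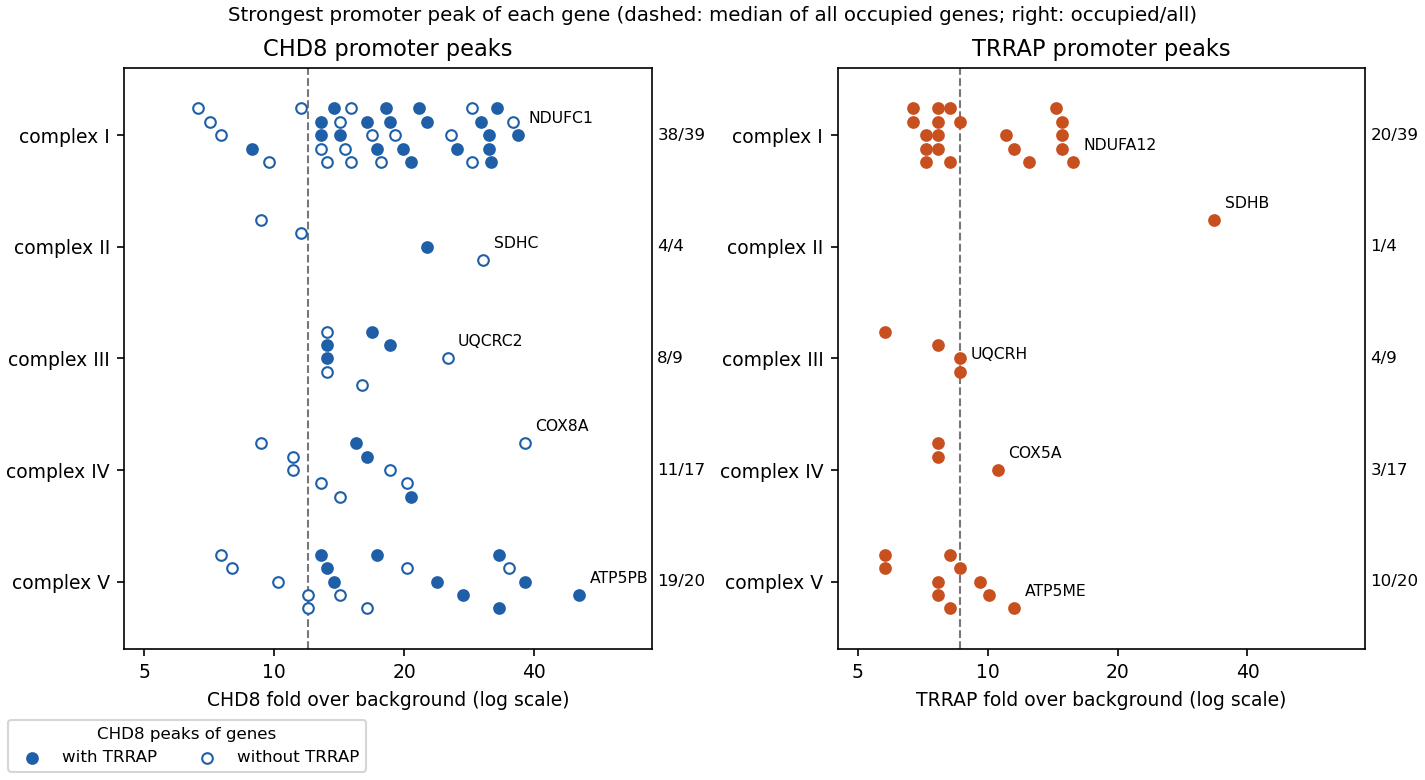
Fold over background (log axis) of the most significant CHD8 (left) and TRRAP (right) promoter peak of each occupied gene, by complex; vertical offsets only separate points, filled CHD8 points also have TRRAP, and dashed lines are the medians of all occupied genes (11.96 and 8.65). CHD8 points lie mostly right of the line (64 of 80). TRRAP points lie mostly at or left of it, with 13 of 38 to its right and SDHB farthest right at 33.5.

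The 9 genes with neither peak were NDUFA4L2, UQCRHL, COX4I2, COX6A2, COX6B2, COX7A1, COX7B2, COX8C and ATP5MGL. COX6A2 and COX7A1 are known as heart and skeletal muscle forms and COX6B2, COX7B2 and COX8C as testis forms. COX4I2 and NDUFA4L2 are known for their response to low oxygen, and UQCRHL and ATP5MGL are retrocopies of UQCRH and ATP5MG. Each was set beside a widely expressed counterpart (COX4I1, COX6A1, COX6B1, COX7A2, COX7B, COX8A, NDUFA4, UQCRH and ATP5MG). Since the 9 are all the members without CHD8, every counterpart had it by this choice. TRRAP was called at 3 of the counterparts: COX4I1, NDUFA4 and UQCRH.

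The 9 genes also had less CpG, with a median ratio of 0.585 and a range from 0.268 (NDUFA4L2) to 0.690 (COX6A2). Within pairs the ratio was higher in the widely expressed gene in 8 of 9. The exception was COX6B1 at 0.602 with CHD8, beside COX6B2 at 0.683 without it, and COX6A2 and COX7B2 (0.617) also passed 0.6 with no peak. The nearest CHD8 peak was 1201 bp away at NDUFA4L2, 8399 bp at ATP5MGL, between 11112 bp (COX7A1) and 14328 bp (COX6A2) at 4 genes, 26678 bp at UQCRHL, 32389 bp at COX4I2 and 554191 bp at COX7B2. Only NDUFA4L2 thus had a CHD8 peak within 2500 bp. Outside its promoter window, 3 CHD8 peaks (best fold 10.19) and 1 TRRAP peak (fold 6.735) lay within that gene. With any annotated start allowed, NDUFA4L2 counted as having CHD8, so its class depends on the start chosen. The part of expression in the split between the 9 genes and their counterparts was not tested. Parts of the UQCRHL and ATP5MGL promoters are repeats, with 37.6% and 45.0% of 32-base words found more than once in the genome, where peaks are harder to call.

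CHD8 peaks of members were taller than usual and TRRAP peaks were not. The median CHD8 fold was 16.4 (quartiles 12.8 and 24.2) in 80 members and 11.96 (9.31 and 16.4) in all 11208 genes with CHD8, and 64 of the 80 exceeded the latter median. The median CHD8 width was 694.5 bp, beside 638 bp. The median TRRAP fold was 8.17 in 38 members and 8.65 in all 7000 genes with TRRAP, and 13 of 38 exceeded the latter. TRRAP peaks were a median of 235.5 bp wide, beside 269 bp. Tall CHD8 peaks were not particular to the members. Mitochondrial ribosomal protein genes had a median CHD8 fold of 18.15, with 62 of 77 above 11.96, and a median TRRAP fold of 9.12 in 41 genes. Across the 38 members with both, folds of the 2 lists were weakly related (Spearman 0.250, Pearson on log2 folds 0.200), a description over genes that share the same libraries, beside 0.144 and 0.128 over 6802 genes.

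TRRAP calls at members were concentrated at strong CHD8 peaks. Members were split at the median CHD8 fold of all genes with CHD8, 11.96. At or below it 1 of 16 members had TRRAP (6.25%, 1.11 to 28.3), while 49.5% of all such genes did, and above it 37 of 64 did (57.8%, 45.6 to 69.1), beside 72.2% of all such genes. The 1 exception was NDUFB4, at 8.87 for CHD8 and 7.69 for TRRAP. The other 15 were NDUFA1, NDUFA5, NDUFA8, NDUFS5, NDUFV1, SDHA, SDHD, COX6A1, COX6B1, COX6C, ATP5F1C, ATP5F1D, ATP5IF1, ATP5MC3 and ATP5MJ, which span 4 complexes. Over quartiles of CHD8 fold the counts were 1 of 8, 0 of 8, 12 of 25 and 25 of 39, where all genes gave 41.2%, 58.9%, 69.4% and 74.99%.

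The same split was made in related lists. Among assembly factors, 8 of 17 genes at or below the median CHD8 fold and 22 of 32 above it had TRRAP. Among mitochondrial ribosomal protein genes the counts were 7 of 15 and 34 of 62. The split was made with the members' peaks in view, and the intervals for 16 members (1.11 to 28.3%) and 17 assembly factors (26.2 to 69.0%) overlap, so the contrast is not called particular to the members. A strong CHD8 peak was not sufficient for a TRRAP call: COX8A, NDUFS7, ATP5F1A and SDHC had CHD8 folds of 38.04, 35.8, 34.9 and 30.5 and no TRRAP peak.

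**Figure D3:**
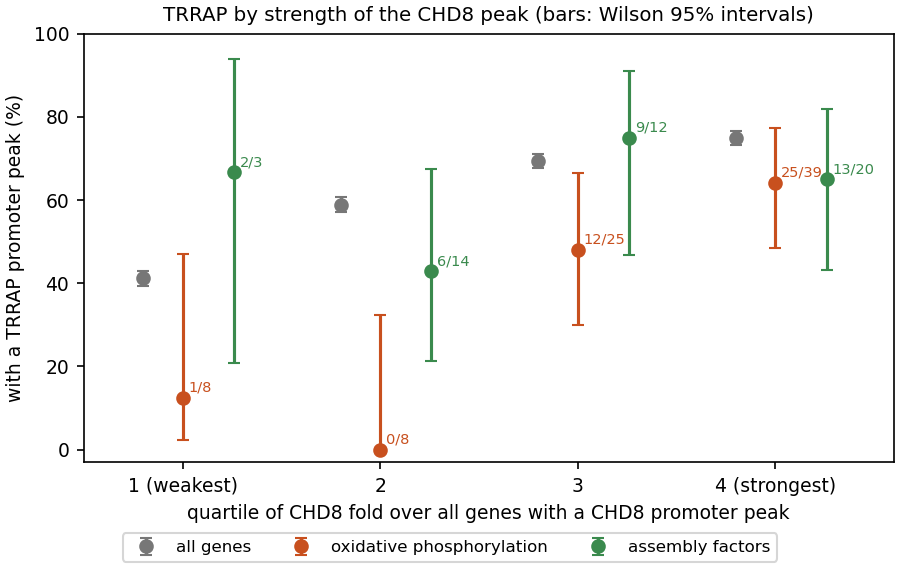
Percentage of genes with a TRRAP promoter peak (y axis) by quartile of CHD8 fold over all genes with CHD8 (x axis), for all genes, the 80 members with CHD8 and 49 assembly factors; whiskers are Wilson 95% intervals and labels are counts. Members stand at 1 of 8 and 0 of 8 in the lower quartiles, where all genes stand at 41.2% and 58.9%.

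Summits lay close to the start. The CHD8 summit was a median of 11 bp upstream (-11 bp, quartiles -75.25 and 32.5), and a CHD8 peak covered the start itself in 79 of 80 members, beside 9850 of 11208 genes. NDUFB4 was the exception, with its peak beginning 19 bp into the gene. The TRRAP summit was further upstream, at a median of -77 bp (quartiles -234 and -15.75), with the start covered in 24 of 38 members, beside -47 bp and 4435 of 7000 genes. In the 38 members with both, the median gap between the summits was 93 bp, beside 105 bp in all genes with both. They lay 2 bp apart at COX5A and UQCRH and 654 bp apart at NDUFS1, where another TRRAP peak covered the start.

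**Figure D4:**
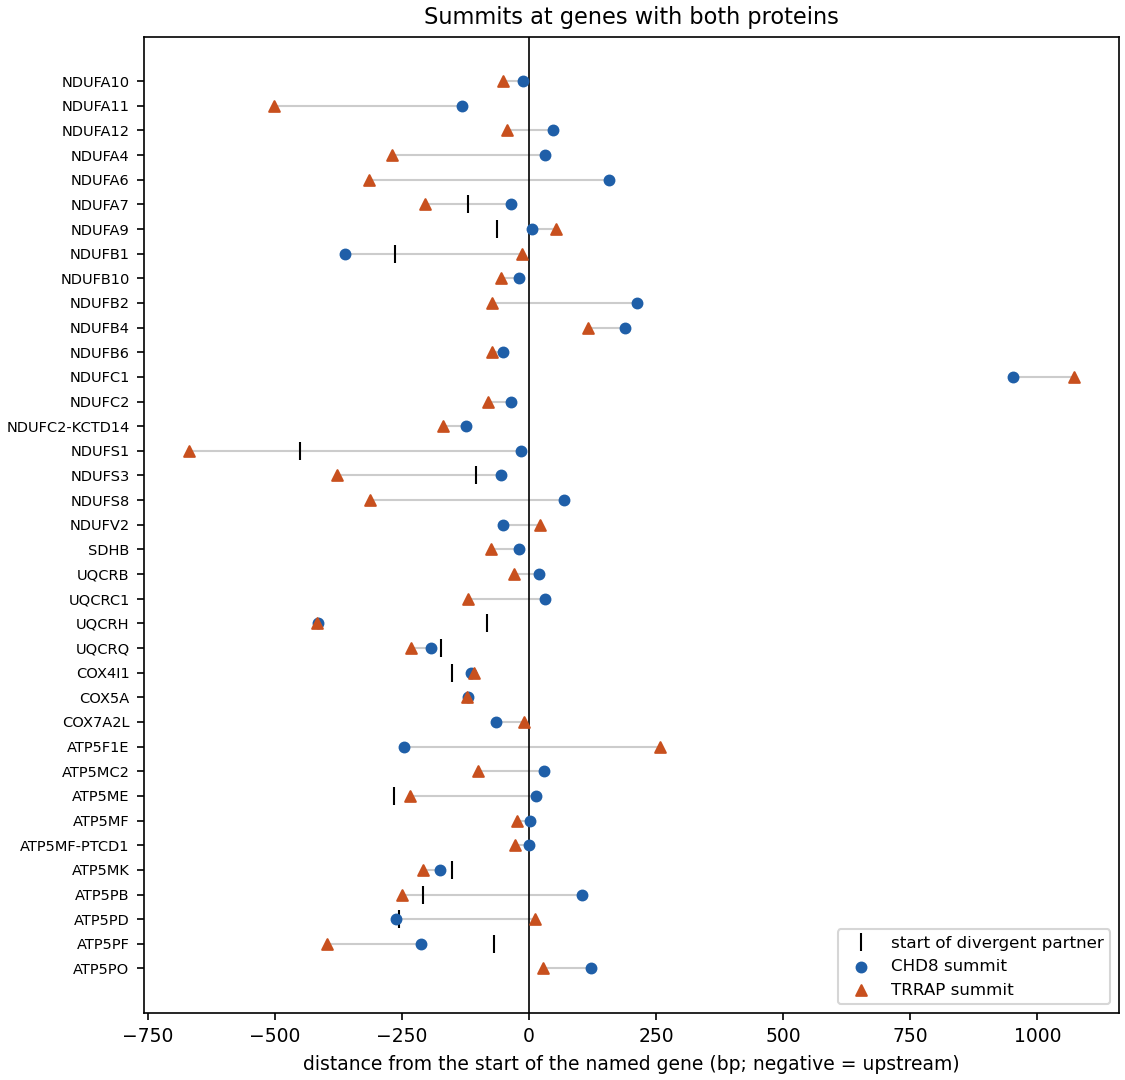
Position of the CHD8 summit (circles) and TRRAP summit (triangles) relative to the start of genes with both (1 of the 38 is not drawn), in bp with negative values upstream; black ticks mark the start of a head-to-head neighbour. TRRAP summits lie upstream of the start at 30 of 38 genes, and at ATP5ME, ATP5PB and COX4I1 they lie 31, 42 and 43 bp from the neighbour's start.

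Many members share their promoter with another gene. A protein-coding neighbour on the opposite strand, starting within 1 kb and transcribed away, was found for 25 of 89 members (28.1%, 19.8 to 38.2), beside 9.49% of all genes. The starts were a median of 167 bp apart, from 38 bp (NDUFB9 and TATDN1) to 677 bp (NDUFA13 and TSSK6). All 25 had CHD8, where 94.2% of all head-to-head genes did, and 13 had TRRAP (52.0%, 33.5 to 70.0), where 60.2% did. A peak at such a promoter cannot be assigned to either gene.

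Summits at these shared promoters could lie nearer either gene. The TRRAP summit was nearer the neighbour's start than the member's in 10 of 13 (76.9%, 49.7 to 91.8). Over all head-to-head genes with TRRAP the share was 49.8%, but both genes of a pair are counted there. A summit nearer one gene is farther from the other, so that share is nearly fixed by the counting and is no measured background. At the same 13 genes the CHD8 summit was nearer the neighbour in 8 (61.5%, 35.5 to 82.3), so the intervals of the proteins overlapped. In a split made after these values were seen, at the 12 with CHD8 alone the CHD8 summit was nearer the neighbour in 2 (16.7%, 4.70 to 44.8). The 49.9% of all head-to-head genes with CHD8 is nearly fixed in the same way. Examples for TRRAP were ATP5MK, where the TRRAP summit was 57 bp from the start of PDCD11 and 208 bp from its own, ATP5ME with MYL5 (31 and 235 bp), and UQCRQ with GDF9 (59 and 232 bp). NDUFS1, encoding the largest core subunit of complex I, starts 451 bp from EEF1B2, a translation elongation factor gene. The summit of its most significant TRRAP peak was 219 bp from the EEF1B2 start and 670 bp from the NDUFS1 start. Another TRRAP peak covered the NDUFS1 start itself. In the opposite sense, TRRAP was nearer the member at NDUFA9, NDUFB1 and ATP5PD. The interval for 13 genes reaches 49.8%, close to an even split between the starts. These counts use only the most significant peak of each gene, and further TRRAP peaks were called at NDUFS1, UQCRH and ATP5PF.

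ATP5PF and GABPA make such a pair, in which a stalk subunit and the ETS factor known for regulating respiratory genes start 68 bp apart. They shared a CHD8 peak of fold 38.04 (chr21:25734663-25736084), tied with COX8A for the second highest among members. Of 3 TRRAP peaks at ATP5PF, the most significant had a fold of 7.69. Its summit was 330 bp from the GABPA start and 398 bp from the ATP5PF start. Another of the 3 lay 38 bp from the ATP5PF start. The printed ATP5PF sequence holds an ETS word 8 bases before its start. NDUFB5 pairs with MRPL47 and NDUFA7 with RPS28, genes for a mitochondrial and a cytosolic ribosomal protein, and SDHD pairs with TIMM8B, a gene of mitochondrial import.

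The window from 250 bases before to 50 after each start was searched for exact consensus words on either strand. For factors known at respiratory genes these were CCGGAAG for ETS proteins, CGCATGCG for NRF1 and AAGATGGCG for YY1. The SP word was GGGGCGGGG and the CRE word TGACGTCA. The NFY word was CCAAT, the E-box CACGTG and the box of TATA promoters TATAAA. E2F was searched as TTCCCGC, and in its other form as TTGGCGC. The latter shares bases with the reverse of the NFY word, and a CRE can share bases with an E-box. A match describes letters and not a bound site. Of the members, 38 (42.7%, 32.9 to 53.1) held an ETS, NRF1 or YY1 word, beside 18.4% of all genes and 29.0% of all genes with CHD8.

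Each of those words was more frequent than in the backgrounds. ETS words were in 24 members (27.0%, 18.8 to 37.0), beside 14.1% of all genes and 22.02% of those with CHD8. NRF1 words were in 10 (11.2%, 6.22 to 19.5), beside 2.84% and 4.54%, and YY1 words were in 10 (11.2%, NDUFS7 having both), beside 2.84% and 4.91%. For NRF1 and YY1 the interval excluded both backgrounds, and for ETS it included the second. SP words went the other way, in 11 members (12.4%, 7.04 to 20.8), beside 24.5% and 31.6%. CRE words (5 members, 5.62%), E-box words (7, 7.87%) and NFY words (29, 32.6%) had intervals that included the shares of all genes. Those were 2.69%, 8.75% and 36.0%. E2F words were in 19 members (21.3%, 14.1 to 30.9), beside 12.2% and 16.2%, and TATA words in 6 (6.74%), beside 9.73% of all genes.

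**Figure D5:**
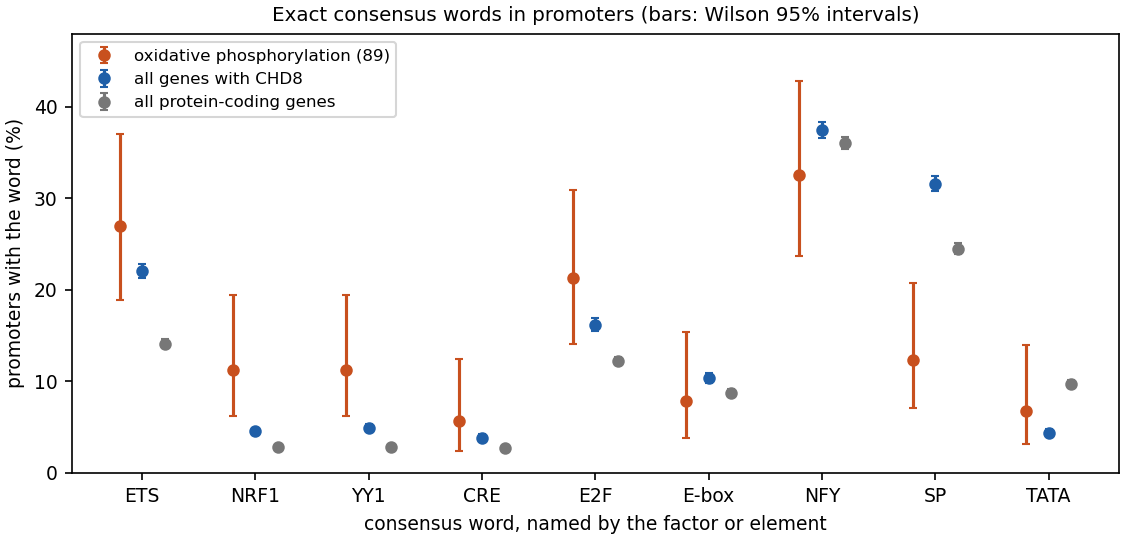
Percentage of promoters (y axis) with an exact consensus word (x axis) in the 89 members, all genes with CHD8 and all protein-coding genes; whiskers are Wilson 95% intervals. NRF1 and YY1 words stand at 11.2% in members and under 5% in both backgrounds, and SP words at 12.4% beside 24.5% and 31.6%.

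The 10 NRF1 genes were NDUFA5, NDUFA8, NDUFB4, NDUFS6, NDUFS7, SDHD, COX6A1, ATP5F1C, ATP5MC2 and ATP5ME, and 3 of them had TRRAP (NDUFB4, ATP5MC2 and ATP5ME). The 10 YY1 genes included NDUFA6, NDUFA7, NDUFA9, SDHB, UQCRC1 and ATP5PF, and 7 of the 10 had TRRAP, all but NDUFB8, NDUFS4 and NDUFS7. In 9 of the 10 the YY1 word lay 11 to 26 bases into the gene on its own strand, as in the SDHB and NDUFS7 sequences. CRE words were at NDUFA10, NDUFB2, SDHB, ATP5MC1 and ATP5ME, of which all but ATP5MC1 had TRRAP. The TRRAP shares with and without a word were 30.0% and 50.0% for NRF1, 70.0% and 44.3% for YY1, and 80.0% and 45.3% for CRE. For ETS they were 41.7% and 50.0%, and for SP 27.3% and 50.7%. The intervals overlapped for each of these words. Over all genes with CHD8 the shares for NRF1, YY1 and CRE were 56.0% and 60.9%, 62.0% and 60.6%, and 69.3% and 60.4%. For ETS they were 53.0% and 62.9%, and for SP 65.5% and 58.5%, with SP opposite in direction to the members.

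The 9 genes with neither peak held no ETS, NRF1, YY1, SP, E-box, E2F or CRE word. For each word the interval for 9 genes was 0 to 29.9%. It includes the share of all genes, which was highest for SP at 24.5%, so the absence is not called a trait of these genes. Only NFY words (COX4I2, COX6A2, COX6B2 and COX7B2) and a TATA word (COX6A2) were found there. COX6A1, printed above with an ETS word 16 bases before its start, also held NRF1 and NFY words.

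Other genes of the pathway had CHD8 as often. All 49 assembly factors, which build the complexes, had CHD8 and 30 had TRRAP (61.2%, 47.2 to 73.6). For these and the following lists the background is 56.1% of all genes with CHD8, and TRRAP at 60.7% of those. The assembly factors stood near that TRRAP share, and the other lists are small. The highest TRRAP folds among them were 42.6 at COX20 (a chaperone of a complex IV core subunit) and 18.7 at NDUFAF4 (a complex I assembly factor). Of 4 subunits and carriers that the symbol rule misses, all had CHD8 and 3 had TRRAP, with CYC1 (cytochrome c1 of complex III) at 15.8, CYCS (cytochrome c) at 10.1, and NDUFAB1 without. For the maintenance and transcription of mitochondrial DNA, 13 of 13 genes had CHD8 and 6 had TRRAP, led by MGME1 (12.9) and TFB2M (9.60). In the citric acid cycle with pyruvate dehydrogenase, 18 of 18 had CHD8 and 12 had TRRAP, led by IDH3A (15.3) and SUCLG1 (12.9). Of 9 regulators of respiratory genes, 8 had CHD8 and 7 had TRRAP, led by GABPB1 (24.9), the partner of GABPA, and NRF1 (16.3). PPARGC1A, an inducible coactivator, had neither. SDHB at 33.5 thus exceeded the TRRAP fold of every gene in these lists except COX20.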

How the data were processed

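Binding of CHD8 and TRRAP was measured by ChIP-seq in 1 library each. HISAT2, MACS2 2.1.1.20160309 and GRCh38 are named per the submitters' processing notes, without roles. The control, filters and read totals are not given in the sources used here, so depth is unknown. The lists hold 23393 CHD8 and 14735 TRRAP peaks and have no headers. The deposited score equals 10 times the deposited −log10 q, rounded down, in every peak. The fold is the authors' ratio over background, and the −log10 p and −log10 q values are as deposited. File names give a false discovery rate of 0.0001 for CHD8 and of 0.001 for TRRAP, and 14712 TRRAP peaks also pass 0.0001.

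Peaks were matched to canonical transcript starts of GENCODE release 44, and 0 peaks ran past the end of a GRCh38 sequence. Coordinates count from 1. For each gene the peak with the highest −log10 q was kept, with ties broken by fold and width. Copy number was counted over 32-base words in 101 bp around each summit. The occupancy and word searches were tested on simulated data. Tools were pandas 2.3.3, numba 0.67.0, numpy 2.4.6 and matplotlib 3.10.9 under Python 3.11.15, with correlations from scipy 1.17.1.

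Members, roles, word and gene lists (written from general knowledge) were chosen with earlier results of these data known. All 93 entries of the 5 written lists matched the annotation. Members are named by their peaks, and 1 is counted but not reported here by name. Values are given for the extremes of CHD8 and TRRAP fold in each complex, for members without CHD8, and for the 2 highest TRRAP folds of each other list. Further members given with values were chosen after these were seen. Alternatives changed the window, the start, the summit rule, the peak thresholds, the list length and the genes included.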

Additional observations from a re-analysis of the deposited data

How the results depend on the processing

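No paired analysis was possible because each antibody has 1 library. Of 124 values recomputed under the alternatives, 77 equalled the reported value, many because the setting does not touch them, 33 changed within its interval and 14 moved outside it. Keeping only the more significant peaks of each list lowered TRRAP most. Its share became 22.97% of members with CHD8 (17 of 74, beside 39.35% of all genes with CHD8), 19.1% of all members, 19.1% with both, 23.08% in complex I, 5.882% in complex IV and 20.0% in complex V. The TRRAP share of all members was then below that of all genes, 19.6%. Leaving out isoform genes, retrocopies and readthrough genes gave a CHD8 share of 100% over all members and in complexes I, III, IV and V, which that removal fixes, since it takes out every gene without CHD8. Complex I also reached 100% with a window of 2500 bp, with any annotated start, and with NDUFA4 and NDUFA4L2 counted in complex IV. Under the alternatives that removed no gene the CHD8 share of members lay between 83.1% and 91.01%, above that of all genes. Under every alternative the TRRAP share among members with CHD8 lay between 22.97% and 50.7%, below that of all genes. The TRRAP share of complex IV ran from 5.882% to 27.3% and was below that of complexes I, III and V under each setting, while complex II, with 4 genes, stood at 25% throughout. With 1 library and unknown read totals, weak sites below the authors' thresholds cannot be told from absent ones.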
